A study of Mus musculus with 31 samples.

Results

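Type I interferon-stimulated genes are the genes that cells switch on when interferon alpha or beta binds its receptor. Signalling from the receptor activates a transcription factor complex that holds Stat2 and Irf9 and binds the interferon-stimulated response element in the promoters of these genes. Their products sense foreign nucleic acid, block viral translation and release, destroy RNA and adjust the response itself. In the lung they are best known from viral infection. Lipopolysaccharide (LPS), a cell wall component of Gram-negative bacteria, reaches the same genes because Toll-like receptor 4 also signals to interferon beta production.

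The genes described here are a named list of 39: transcription factors of the pathway, nucleic acid sensors, IFIT proteins, oligoadenylate synthetases, Mx GTPases, enzymes of the ISG15 and ADP-ribose systems, and other genes known to respond to interferon. A member was measured where a probe set of the array carried its symbol alone. That held for 37 of the 39, each with 1 probe set, out of 19938 genes measured in all. All 37 were among the 14705 genes tested. Isg15, the ubiquitin-like modifier, had only a probe set shared with a second symbol, and Ifi44 had no named probe set, so neither has a value here.

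The study measured lung RNA of male AKR and C57BL/6 mice, all labelled as 6 weeks old, on 31 Affymetrix arrays in 11 groups. Of the groups, 8 cross strain, exposure (cigarette smoke or room air) and intratracheal instillation (LPS in saline or saline alone). Each held 3 arrays except AKR smoke with LPS, which held 2. The titles give these 8 groups 3 weeks of exposure, whereas the series text gives instilled mice 6 weeks, so the duration is uncertain. The remaining groups breathed room air with no instillation: C57BL/6 for 6 weeks (3 arrays), AKR for 3 weeks (2 arrays) and AKR for 6 weeks (3 arrays). The dose of LPS and the time from instillation to dissection are not given in the sources used here. The titles call the arrays biological replicates without naming animals, so p-values measure the spread between these samples. The fit gave each gene a spread shared by all 11 groups. Every SE and p here therefore also carries the spread of arrays outside the groups compared.

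Values are deposited log2 intensities, on which 1 unit is a doubling. A member is said to have risen or fallen where limma's p, adjusted over the 14705 genes, was under 0.05. The arrays formed a set of 18 (every C57BL/6 array and AKR room air at 6 weeks, medians 6.964 to 7.104) and a set of 13 (all other AKR arrays, medians 6.798 to 6.9), which may have been normalized separately. Levels of the strains are therefore set side by side only within the larger set. The surfactant gene Sftpc, a marker of lung epithelium, lay between 12.991 and 13.834 on every array.

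A pair of C57BL/6 arrays went against their labels. Saa3, an acute phase gene, was at 12.47 on the array labelled smoke and saline 3, against 6.10 and 6.36 on its partners. It was at 6.06 on the array labelled smoke and LPS 3, against 12.64 and 12.85 on its partners. Both keep their labels here, and differences, counts of calls and medians for C57BL/6 smoke are given with and without the pair.

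Because the members moved together, their promoters were searched on both strands for the core of the interferon-stimulated response element, written GAAA, any 2 bases, GAAA. The sequences are those of RefSeq (GRCm38.p6), 250 bases before to 50 after each gene's start. The table held 28 of the 39 members, and 12 of them had the motif: Stat2, Ifit1, Ifit3, Isg15, Oas1a, Oas3, Rsad2, Ddx58, Ifih1, Bst2, Trim30a and Eif2ak2. Of all 27025 genes in the table, 3.99% had it. The stretches around the motif of 6 members whose values are given in full are shown, 5′ to 3′ on the gene's strand, with the motif or its reverse complement in capitals.
Ifit1 (chr19:34640760-34640838, plus strand): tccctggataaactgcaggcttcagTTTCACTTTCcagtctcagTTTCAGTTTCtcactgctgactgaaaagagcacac
Ifit3 (chr19:34583348-34583441, plus strand): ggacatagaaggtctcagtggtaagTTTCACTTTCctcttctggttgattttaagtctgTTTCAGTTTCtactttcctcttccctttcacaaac
Rsad2 (chr12:26456538-26456597, minus strand): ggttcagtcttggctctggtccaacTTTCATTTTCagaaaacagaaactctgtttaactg
Stat2 (chr10:128270251-128270310, plus strand): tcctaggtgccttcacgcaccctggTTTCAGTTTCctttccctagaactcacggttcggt
Oas1a (chr5:120907526-120907570, minus strand): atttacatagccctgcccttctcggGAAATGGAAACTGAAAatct
Bst2 (chr8:71537562-71537627, minus strand): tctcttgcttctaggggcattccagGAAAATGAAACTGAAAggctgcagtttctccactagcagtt

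Ifit1 and Ifit3 each carry 2 separate copies in these stretches, and in Oas1a and Bst2 the 2 copies overlap. Only copies before the gene's start were chosen for display. Of the 12 members with the motif, 9 had it there, whereas Ddx58, Ifih1 and Eif2ak2 had it only after the start. A match is a run of letters and not a measured binding site. The 11 measured members with the motif and the 15 without it had median differences after LPS of 1.31 and 1.36 in C57BL/6 and of 1.76 and 1.59 in AKR.

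LPS raised the interferon-stimulated genes in the lungs of both strains. In mice that had breathed room air, 33 of the 37 members rose in C57BL/6 and 36 rose in AKR, and none fell. Among all genes tested, 11.5% were called higher and 4.3% lower in C57BL/6, and 9.45% and 7.41% in AKR. The median member was 1.48 log2 units above saline in C57BL/6 (range 0.37 to 2.94) and 1.83 above in AKR (range 0.51 to 3.93), where the median gene was at -0.01 and -0.04. The C57BL/6 groups did not overlap in any of the 37 members, LPS being higher, against 24% of all genes. In AKR they did not overlap in 36, against 15.4% of all genes. In whole lung, more cells of a responding type and more RNA per cell cannot be told apart.

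The 3 transcription factors all rose in both strains. Irf7, which drives the amplifying wave of interferon alpha, measured 8.31, 8.45 and 8.28 with saline and 11.58, 11.21 and 11.08 with LPS in C57BL/6, and 7.69, 7.60 and 7.04 against 10.98, 11.12 and 9.47 in AKR. Among these room air groups, no saline array came within 1 log2 unit of an LPS array of its strain. The rise was 2.94 ± 0.78 log2 units (SE, 7.68-fold, limma adjusted p = 0.0144) in C57BL/6 and 3.08 ± 0.78 (8.48-fold, limma adjusted p = 0.00813) in AKR. Irf9, the DNA-binding subunit, measured 9.05, 9.07 and 9.06 with saline against 10.003, 10.16 and 9.99 with LPS in C57BL/6, and 8.61, 8.57 and 8.31 against 9.48, 9.55 and 9.02 in AKR (rises of 0.99 ± 0.21 and 0.85 ± 0.21). Stat2 measured 9.37, 9.21 and 9.29 with saline and 10.86, 10.94 and 10.49 with LPS in C57BL/6, then 9.22, 9.17 and 9.02 against 10.85, 10.82 and 9.98 in AKR. Its groups were apart in both strains, by 1.48 ± 0.29 (limma adjusted p = 0.0042) and 1.41 ± 0.29 (limma adjusted p = 0.00185).

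**Figure D1:**
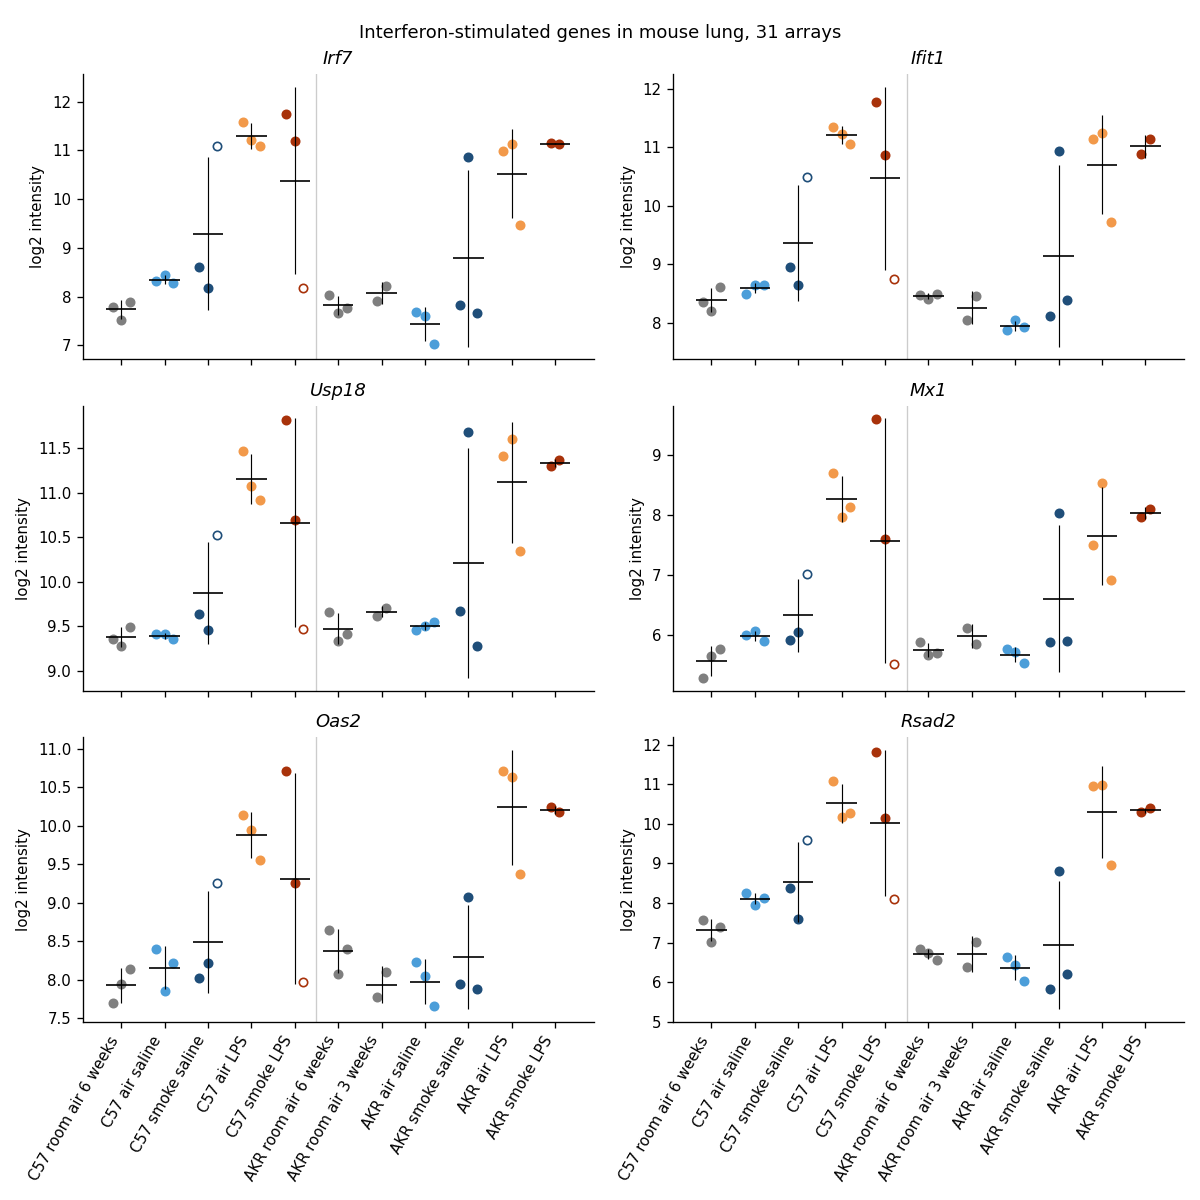
Log2 intensity (vertical axis) of Irf7, Ifit1, Usp18, Mx1, Oas2 and Rsad2 on every array, by group along the horizontal axis; points are arrays, horizontal lines group means, vertical lines 1 SD, and open circles the pair of C57BL/6 arrays that go against their labels. LPS arrays (orange and dark red) lie above saline arrays (blue), except the open circles and AKR smoke saline array 2.

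IFIT proteins bind the ends of viral RNA and stop its translation. Ifit1 measured 8.49, 8.64 and 8.65 with saline and 11.35, 11.23 and 11.05 with LPS in C57BL/6, and 7.88, 8.04 and 7.92 against 11.14, 11.24 and 9.72 in AKR. It rose 6.13-fold (2.62 ± 0.62 log2 units, limma adjusted p = 0.00833) and 6.73-fold (2.75 ± 0.62, limma adjusted p = 0.00353). Ifit3 measured 10.13, 10.03 and 10.18 against 12.10, 11.58 and 11.59 in C57BL/6, and 9.09, 8.83 and 8.20 against 11.13, 11.70 and 10.49 in AKR. These are rises of 1.65 ± 0.46 and 2.40 ± 0.46 log2 units. Ifit2, the neighbour of Ifit3 on the chromosome, rose by 2.19 ± 0.54 and 2.79 ± 0.54.

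All 4 nucleic acid sensors rose in both strains. Zbp1, which recognises left-handed nucleic acid and can start necroptosis, measured 8.35, 7.97 and 7.95 with saline and 11.30, 10.87 and 10.50 with LPS in C57BL/6, and 7.31, 7.34 and 7.35 against 11.004, 11.32 and 9.75 in AKR. It was second only to Irf7 among the members in C57BL/6 (2.80 ± 0.62, limma adjusted p = 0.0064) and to Rsad2 in AKR (3.36 ± 0.62, limma adjusted p = 0.000752). The cytoplasmic RNA sensors changed less. Ddx58, the gene of RIG-I, measured 9.90, 10.01 and 10.04 against 10.92, 10.84 and 10.76 in C57BL/6, and 9.39, 9.47 and 9.28 against 10.65, 10.92 and 10.17 in AKR. Ifih1, the gene of MDA5, measured 9.22, 9.13 and 9.32 against 10.50, 10.37 and 10.16, and 8.74, 8.87 and 8.70 against 10.39, 10.58 and 9.50. Saline and LPS arrays were apart for both genes in both strains. Dhx58, which modulates those sensors, rose by 1.46 ± 0.48 and 1.84 ± 0.48.

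Oligoadenylate synthetases make the second messenger that activates RNase L. All 5 measured members of the family, which include the synthetase-like genes Oasl1 and Oasl2, rose in both strains. Oas1a measured 7.22, 6.79 and 6.95 with saline and 8.69, 8.26 and 7.92 with LPS in C57BL/6, and 6.97, 6.68 and 6.36 against 8.49, 9.03 and 7.76 in AKR. Oas2 measured 8.39, 7.85 and 8.21 against 10.13, 9.94 and 9.55, and 8.22, 8.04 and 7.66 against 10.72, 10.63 and 9.38. Oas2 rose by 1.72 ± 0.46 (limma adjusted p = 0.0161) and 2.27 ± 0.46 (limma adjusted p = 0.00178), and its neighbour Oas3 by 2.02 ± 0.58 and 2.73 ± 0.58. Oasl1, which in mice restrains the translation of Irf7, measured 7.71, 7.41 and 7.32 against 10.12, 9.14 and 9.25 in C57BL/6, and 7.18, 7.17 and 6.76 against 10.21, 9.996 and 8.53 in AKR. Its groups stood at least 1 log2 unit apart in either strain. Oasl2, beside it on the chromosome, rose by 1.78 ± 0.47 and 2.13 ± 0.47.

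Among the enzymes that act on RNA and nucleotides, Rsad2 moved most. It encodes viperin, which makes a chain-terminating nucleotide. Rsad2 measured 8.24, 7.96 and 8.12 with saline and 11.09, 10.19 and 10.27 with LPS in C57BL/6, and 6.63, 6.44 and 6.02 against 10.95, 10.98 and 8.96 in AKR. It rose 5.31-fold in C57BL/6 (2.41 ± 0.72, limma adjusted p = 0.026) and 15.2-fold in AKR (3.93 ± 0.72, limma adjusted p = 0.000676), the largest rise of any member in AKR. Cmpk2, the nucleotide kinase beside Rsad2, measured 8.18, 8.21 and 8.14 against 10.09, 9.68 and 9.53, and 7.65, 7.70 and 7.33 against 9.78, 10.18 and 8.36. Eif2ak2, the kinase PKR that halts translation, measured 8.22, 8.29 and 8.35 against 9.60, 9.46 and 9.30, and 7.54, 7.59 and 7.80 against 8.89, 9.28 and 8.31. Samhd1, which depletes deoxynucleotides, measured 11.72, 11.73 and 11.84 against 12.67, 12.60 and 12.40, and 11.11, 11.36 and 10.76 against 12.38, 12.59 and 11.98. Within the room air groups, all 3 had LPS arrays above every saline array of their strain. Samhd1 and the exonuclease gene Isg20 made the smallest rises of this set in C57BL/6 (0.79 ± 0.22 and 0.80 ± 0.26), and Isg20 the smallest in AKR (0.88 ± 0.26).

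The Mx GTPases trap viral particles, although many laboratory strains carry Mx1 alleles that make no intact protein. Mx1 measured 6.01, 6.08 and 5.91 with saline and 8.70, 7.97 and 8.13 with LPS in C57BL/6, and 5.78, 5.73 and 5.54 against 7.50, 8.52 and 6.92 in AKR. It rose 4.82-fold (limma adjusted p = 0.0184) and 3.92-fold (limma adjusted p = 0.0335). Mx2 measured 5.68, 5.20 and 5.34 against 7.20, 6.96 and 6.97, and 5.69, 5.48 and 5.36 against 7.03, 7.36 and 6.51. Bst2 encodes tetherin, which holds budding virus at the membrane. It measured 8.75, 8.58 and 8.58 against 10.06, 9.81 and 9.50 in C57BL/6, and 8.07, 8.25 and 8.18 against 9.11, 9.49 and 8.47 in AKR. Saline and LPS were apart for Mx2 and Bst2, with Bst2 rising by 1.15 ± 0.28 and 0.86 ± 0.28.

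Usp18 removes ISG15 from proteins and dampens the interferon receptor. It measured 9.42, 9.41 and 9.36 with saline and 11.47, 11.08 and 10.92 with LPS in C57BL/6, and 9.46, 9.50 and 9.55 against 11.42, 11.60 and 10.34 in AKR. It rose 3.40-fold (limma adjusted p = 0.0163) and 3.07-fold (limma adjusted p = 0.022). The other 5 genes of the ubiquitin, ISG15 and ADP-ribose systems also rose in both strains: Herc6, a mouse ISG15 ligase (1.72 ± 0.44 and 2.11 ± 0.44), the neighbours Parp9 (1.34 ± 0.33 and 1.83 ± 0.33), Dtx3l (1.74 ± 0.37 and 2.04 ± 0.37) and Parp14 (1.61 ± 0.34 and 2.22 ± 0.34), and Trim30a (1.31 ± 0.39 and 2.27 ± 0.39). Parp14 had the smallest limma adjusted p of any member in AKR, 0.000157.

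Of the remaining 8 members, 4 rose in C57BL/6 and 7 in AKR. Lgals3bp, a secreted galectin-binding glycoprotein, measured 10.87, 11.17 and 11.01 with saline and 12.39, 12.29 and 12.38 with LPS in C57BL/6, and 10.45, 10.44 and 10.51 against 11.73, 11.92 and 11.45 in AKR. It rose by 1.33 ± 0.31 (limma adjusted p = 0.00728) and 1.23 ± 0.31 (limma adjusted p = 0.00724). Rtp4, Xaf1 and Ifi35 rose in both strains too. Ifi27l2a, a small membrane protein gene, passed in neither: it measured 8.28, 7.89 and 8.27 against 9.23, 8.85 and 8.74 in C57BL/6 (0.80 ± 0.31, limma adjusted p = 0.0796), and 9.09, 8.28 and 8.24 against 9.46, 9.51 and 8.15 in AKR (0.51 ± 0.31, limma adjusted p = 0.282). Its AKR groups overlapped. Sp100, a nuclear body protein gene, and Epsti1 and Tor3a passed in AKR (1.32 ± 0.24, 1.46 ± 0.29 and 0.89 ± 0.22). In C57BL/6 they stood at 0.37 ± 0.24, 0.58 ± 0.29 and 0.59 ± 0.22, which did not pass.

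Whether LPS acted differently in the strains was tested as the difference of the 2 differences. It was called for 0 of the 37 members by limma, against 1.14% of all genes, and 2 members had an unadjusted p under 0.05. These were Sp100 (0.95 ± 0.34 higher in AKR, limma adjusted p = 0.226) and Epsti1 (0.87 ± 0.41, limma adjusted p = 0.421). Rsad2 had the largest estimate, 1.52 ± 1.01 (limma adjusted p = 0.642), followed by Trim30a at 0.97. At the other end were Mx1 and Bst2 at -0.30 and Ifi27l2a at -0.29. The median over the members was 0.34, that over all genes -0.04. AKR LPS array 3 entered this estimate: it was the lowest of its 3 arrays for all 37 members, and at least 1 log2 unit below both others for 18 of them, against 0.7% of all genes. Its Ifng was at 6.96, against 11.16 and 10.70, and its mean of 17 interferon gamma-induced genes at 9.728, against 10.944 and 11.258. Without that array limma called Sp100 (1.26, adjusted p = 0.0402) and no other member.

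**Figure D2:**
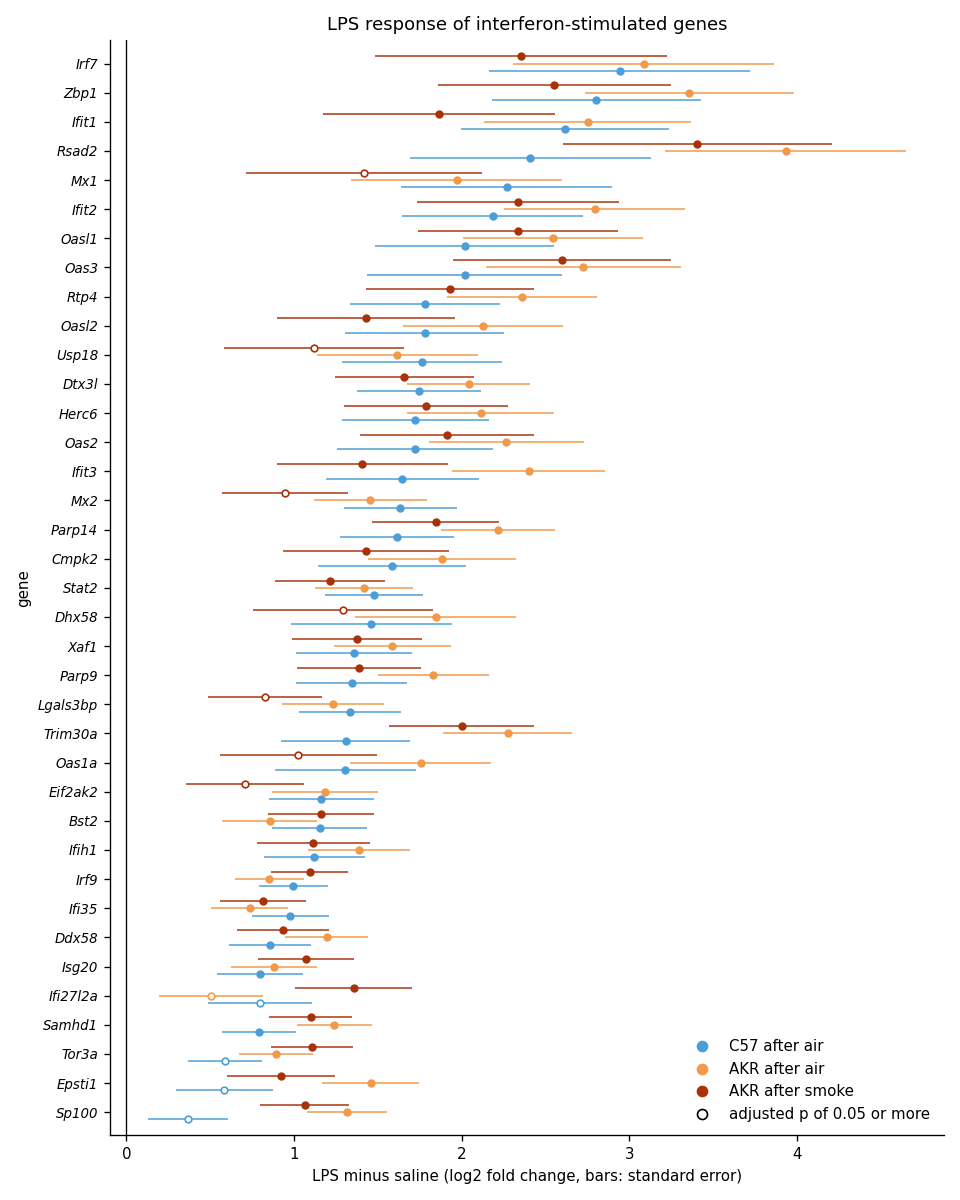
Difference LPS minus saline (horizontal axis, log2 units, with SE) for the 37 measured members (vertical axis), in C57BL/6 after air (blue), AKR after air (orange) and AKR after smoke (red); open symbols have a limma adjusted p of 0.05 or more. All differences are above 0, from 0.37 for Sp100 in C57BL/6 to 3.93 for Rsad2 in AKR after air.

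The C57BL/6 count depended on single arrays and on which groups were in the fit. It was 21 without air and saline array 1, 18 without air and saline array 2 and 20 without air and LPS array 1. It was 34 without the pair that goes against its labels and 35 without that pair and AKR smoke and saline array 2. With only the compared groups in the fit it was 37. The AKR counts under these 3 settings were 36, 36 and 32. In C57BL/6 the smallest limma adjusted p of a member was 0.0042 with all arrays and 1.76e-07 without the 3 arrays. All 37 differences stayed above 0 under each alternative to the processing that was tried.

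Of the ligands and the rest of the pathway, interferon beta itself was not seen. Ifnb1 lay between 4.971 and 5.62 on all 31 arrays, below the filter on low values. Of 21 listed ligand genes, 16 were on the arrays and 6 were tested. Only Ifng, the type II interferon made by lymphocytes, rose among those 6: it measured 6.17, 6.46 and 6.30 with saline and 9.64, 9.01 and 9.52 with LPS in C57BL/6, and 5.73, 5.35 and 5.35 against 11.16, 10.70 and 6.96 in AKR (limma adjusted p = 0.0236 and 0.00272). Many of the members are also induced by that interferon. Of 17 genes listed as interferon gamma-induced, 16 rose in C57BL/6 (median 1.99) and 17 in AKR (median 3.11), led by the chemokine genes Cxcl10 (5.81 ± 1.01 and 5.83 ± 1.01) and Cxcl9 (5.80 ± 0.97 and 5.88 ± 0.97).

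Receptor and signalling genes moved less. Of 10 tested, 6 rose in C57BL/6 (median 0.37) and 7 in AKR (median 0.53), among them the kinase Jak2 (0.72 ± 0.19 and 1.38 ± 0.19) and Ifnar2, a chain of the type I receptor (0.46 ± 0.14 and 0.70 ± 0.14). Of 17 genes that lead to interferon production, 8 and 13 rose, among them Cd14, the LPS co-receptor (3.01 ± 0.61 and 3.49 ± 0.61), the kinase Ikbke (2.61 ± 0.57 and 2.54 ± 0.57) and Irf1 (1.77 ± 0.34 and 2.11 ± 0.34). Of 10 negative regulators, 5 and 8 rose, with Tnfaip3, Socs3 and Socs1 leading in both strains. Of 54 other interferon-stimulated genes outside the 39, 35 rose and 0 fell in C57BL/6 (median 0.86), and 49 rose and 1 fell in AKR (median 1.14).

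Markers of other cells moved with LPS as well. The mean of 12 neutrophil genes lay between 7.124 and 7.866 with saline and between 8.949 and 9.099 with LPS in C57BL/6, where 2 of 12 rose (10 without the pair). In AKR it lay between 6.244 and 6.501 and between 8.867 and 9.51, and 11 of 12 rose. Of 11 monocyte and macrophage genes, 7 and 9 rose. Of 6 genes of plasmacytoid dendritic cells, the cells that make most interferon alpha, 0 rose and 1 fell in C57BL/6, and 3 rose in AKR. They did not move together in C57BL/6. Ly6d measured 8.41, 8.72 and 8.84 with saline against 7.43, 7.50 and 7.88 with LPS, and Ccr9 6.38, 6.52 and 6.70 against 7.11, 7.17 and 7.57. Siglech measured 7.09, 7.20 and 7.25 against 7.21, 7.20 and 7.27. The mean of B cell genes was 9.606 with saline and 7.987 with LPS in C57BL/6, and 7.276 and 7.906 in AKR. The part of these cells in the members' rise was not tested.

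After cigarette smoke, LPS raised most members in AKR. With 3 saline and 2 LPS arrays, 30 of 37 rose and 0 fell, with 16.9% of all genes called higher and 14.6% lower. The median member was at 1.37 and the median gene at -0.003. The groups did not overlap in 29 members, against 29.5% of all genes. Smoke and saline array 2 carried high levels of the members. Without it and the C57BL/6 pair, all 37 rose (median 1.86, range 0.91 to 4.33), and all 37 also rose with that array alone left out. The count was 17 without smoke and LPS array 1 and 13 without smoke and LPS array 2, where the lone LPS array was assumed to vary like the other groups.

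Rsad2 again rose most in AKR after smoke: 5.82, 8.80 and 6.21 with saline against 10.30 and 10.39 with LPS, 10.6-fold (3.40 ± 0.80, limma adjusted p = 0.00272). Irf7 measured 7.82, 10.87 and 7.66 against 11.15 and 11.13, and Ifit1 8.11, 10.93 and 8.39 against 10.87 and 11.15. For Ifit1 the second saline array lay above an LPS array, so the groups overlapped, although both genes passed (limma adjusted p = 0.0418 and 0.0425). Zbp1 measured 7.16, 9.50 and 7.39 against 10.66 and 10.47 (2.55 ± 0.70), Stat2 8.90, 9.80 and 9.03 against 10.38 and 10.54 (1.21 ± 0.33) and Irf9 8.41, 9.03 and 8.56 against 9.75 and 9.77 (1.09 ± 0.23). These 3 rose and their groups were apart. Oas3, at 2.60 ± 0.65, was second to Rsad2.

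In the synthetase family after smoke, Oas2 measured 7.94, 9.07 and 7.87 against 10.24 and 10.17, and Oasl1 7.12, 8.45 and 6.77 against 9.78 and 9.79, and both rose. Oas1a measured 7.07, 8.69 and 6.82 against 8.54 and 8.56 and did not pass (1.02 ± 0.47, limma adjusted p = 0.101). For Oas1a the second saline array lay above both LPS arrays. Mx1 measured 5.90, 8.03 and 5.92 against 7.96 and 8.10 (1.42 ± 0.70, limma adjusted p = 0.133), Usp18 9.68, 11.68 and 9.28 against 11.30 and 11.36 (1.12 ± 0.53, limma adjusted p = 0.118), and Mx2 5.31, 6.79 and 5.65 against 6.79 and 6.94 (0.95 ± 0.38, limma adjusted p = 0.0577). In Mx1 and Usp18 as well, that array reached the LPS values. Eif2ak2 measured 7.66, 8.89 and 7.74 against 8.74 and 8.87 (0.71 ± 0.35, limma adjusted p = 0.135), the smallest difference of the 37. Lgals3bp measured 11.25, 11.80 and 10.52 against 12.05 and 11.99 (0.83 ± 0.34, limma adjusted p = 0.0687), next to Ifi35 at 0.82 ± 0.26. Dhx58 was the last that did not pass (1.29 ± 0.54).

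The remaining members with values in full all rose in AKR after smoke. Ifit3 measured 9.13, 11.61 and 10.07 against 11.52 and 11.84, Cmpk2 7.79, 9.04 and 7.54 against 9.52 and 9.59, and Ddx58 9.49, 10.50 and 9.56 against 10.80 and 10.77. Ifih1 measured 8.72, 9.77 and 9.01 against 10.20 and 10.37, Bst2 8.15, 9.03 and 8.04 against 9.50 and 9.63, and Samhd1 10.71, 11.12 and 11.49 against 12.12 and 12.29. Of these 6, only Ifit3 had a saline array inside the LPS range. Ifi27l2a, which did not pass after air, rose here: 7.71, 8.19 and 7.91 against 9.45 and 9.14 (1.36 ± 0.35, limma adjusted p = 0.00493). Tor3a, a torsin ATPase gene, rose by 1.11 ± 0.25.

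The rest of the pathway after smoke in AKR was as follows. Of the 17 interferon gamma-induced genes all 17 rose (median 2.28), of 10 receptor and signalling genes 8 (median 0.79), of 17 genes leading to interferon production 15 (median 1.47) and of 10 negative regulators 7 (median 1.53). Of 54 other interferon-stimulated genes 37 rose and 2 fell. Ifng, at 5.14, 5.50 and 5.39 with saline and 7.45 and 7.62 with LPS, did not pass (2.19 ± 1.00, limma adjusted p = 0.102). Of 12 neutrophil genes 11 rose.

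The AKR array labelled smoke and saline 2 stood apart in these genes. On 19 of the 37 members it was at least 1 log2 unit above both other arrays of its group, a difference met by 0.272% of the genes tested (40 of 14705). The median member exceeded the mean of both others by 1.15 log2 units, and the median gene's excess was -0.01. When the genes tested were ordered by that excess, 12 members stood among the first 20 and 21 among the first 60. Among those first 60 outside the list were Ifit3b, Gm4951, Phf11d, Ddx60 and Rnf213, which also respond to interferon, and Iigp1 and Irgm1, GTPases induced by interferon gamma. They also held genes of DNA replication and cell division, named after their values were seen: Melk (1.46), Mcm6 (1.38), Dtl (1.34), Asf1b (1.24), Uhrf1 (1.18), Mcm5 (1.16) and Hells (1.13). Others of the 60, also named after their values were seen, were Slc7a11 (1.21), Timp1 (1.13), Orm1 (1.13) and Slpi (1.02). With LPS after air in AKR they differed from saline by 3.39, 3.35, 3.36 and 1.49 log2 units. The chemokine gene Cxcl9, of the interferon gamma-induced list, was there too (1.30).

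On that array Irf7 exceeded the mean of its partners by 3.12 log2 units (8.72-fold), Rsad2 by 2.79 (6.90-fold) and Ifit1 by 2.68 (6.40-fold). Irf7 reached 92% of the difference that LPS made after smoke in AKR, measured from the same partners, and Ifit1 97%. Usp18 reached 119% and was the 1 member above the highest of the 5 AKR LPS arrays. At or above the lowest of those 5 were 25 members. Others went less far: Oas2 reached 50.7%, Parp14 35.3% and Samhd1 1.49%. Samhd1, Ifi35, Ifi27l2a and Tor3a exceeded the mean of their partners by under 0.5 log2 units. Samhd1, at 11.12, lay between its partners at 10.71 and 11.49. Above both partners and all 3 AKR air saline arrays were 35 of the 37 members.

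**Figure D3:**
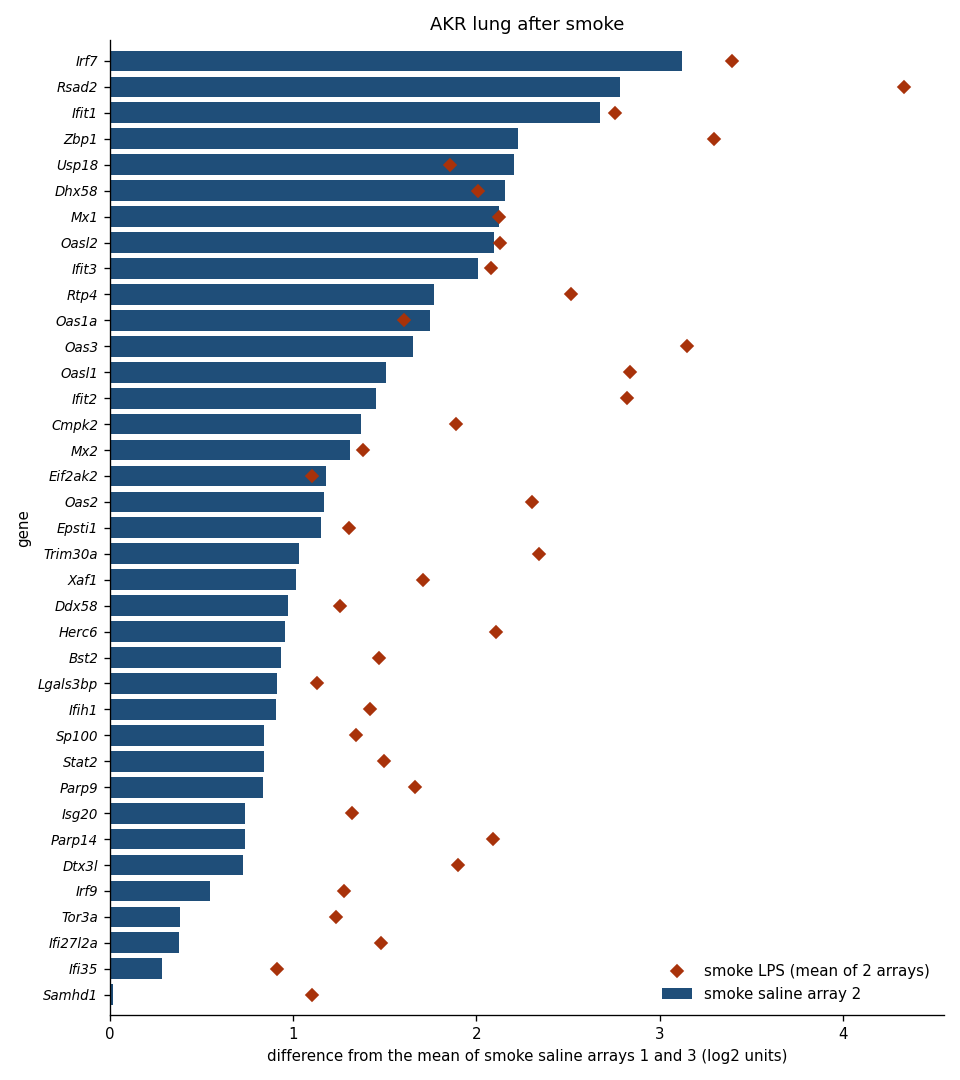
Excess of AKR smoke and saline array 2 over the mean of arrays 1 and 3 (bars, log2 units) for the 37 measured members, with the difference of the AKR smoke and LPS mean from the same 2 arrays (diamonds). Bars come close to the diamonds for Irf7, Ifit1 and Mx1 and fall far short for Parp14 and Samhd1.

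Of the other gene groups, the interferon lists held genes with such an excess. Of 54 other interferon-stimulated genes 7 were at least 1 log2 unit above both partners, and of 17 interferon gamma-induced genes 2 were. The mean of the 54 together with the untested Ifi44l was 8.801, against 8.315 and 8.466 on its partners. That of the 17 was 7.81, against 7.2 and 7.583. The mean of 16 inflammatory cytokine and chemokine genes together with the untested Il10 was 6.12, between 6.034 and 6.177 on its partners. None of the 16 was 1 log2 unit above both. Their excesses ran from -1.30 (Il1a) to 0.74 (Cxcl5), with a median of 0.10. Saa3 was at 8.65, against 8.09 and 8.26, and Ifng at 5.50, against 5.14 and 5.39. The mean of 12 neutrophil genes was 6.354, between those of its partners. That of 6 plasmacytoid dendritic cell genes together with the untested Klk1b1 was 6.931, against 6.882 and 6.867. The excess of heart muscle genes had a median of 0.46, and their mean of 10.72 lay between 11.235 and 9.752 on its partners.

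**Figure D4:**
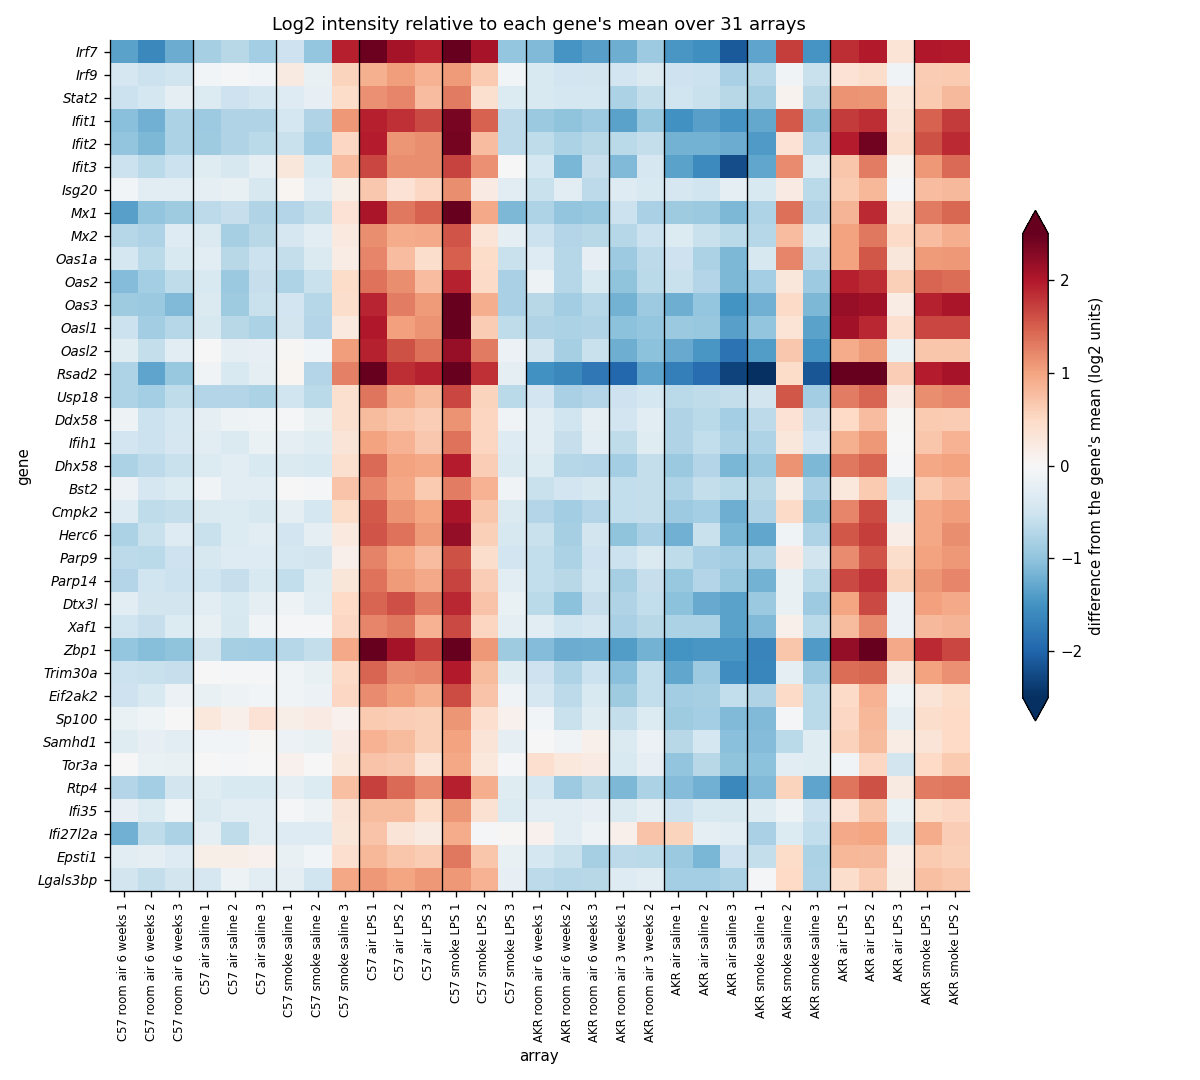
Level of the 37 measured members (rows) on the 31 arrays (columns, by group), as log2 difference from the gene's mean over all arrays; colours saturate at 2.5 either way. The LPS groups are high over almost all members, as is AKR smoke and saline array 2, and C57BL/6 smoke and LPS array 3 is low.

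In C57BL/6 after smoke, LPS raised 0 of the 37 members by limma with all arrays (0% of all genes were called), 9 members having an unadjusted p under 0.05. The members' median was 0.75 and no member's groups were apart, against 1.46% of all genes with LPS higher. Rsad2 had the largest difference (1.49 ± 0.72) and Tor3a the smallest (0.27, and 0.56 without the pair). Without the pair that goes against its labels, 2 arrays remained in each group. Then 34 members rose, with 10.9% of all genes called higher and a median member of 1.47. With smoke and LPS array 3 alone left out, 28 rose.

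Irf7 shows the pattern of these arrays: 8.62, 8.18 and 11.08 labelled saline, and 11.74, 11.20 and 8.18 labelled LPS. Without the pair its difference was 3.07 ± 0.64 (limma adjusted p = 0.00159). Rsad2 measured 8.38, 7.61 and 9.60 against 11.81, 10.16 and 8.10, which gave 2.99 ± 0.70 without the pair (limma adjusted p = 0.00411). Ifit1 measured 8.95, 8.64 and 10.48 against 11.78, 10.87 and 8.74, and Zbp1 8.08, 8.21 and 9.75 against 11.54, 9.88 and 7.90. Mx1 measured 5.92, 6.05 and 7.02 against 9.59, 7.60 and 5.53. In all 5 the third array labelled saline was above its partners, the third labelled LPS below its partners, and LPS array 1 the highest of the 6. Ifi27l2a, Sp100 and Tor3a did not pass without the pair (limma adjusted p = 0.152, 0.155 and 0.124).

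Of all 37 members, Sp100 was the 1 for which the third array labelled saline was not the highest of its label (10.31, 10.37 and 10.27), and Ifi27l2a the 1 for which the third labelled LPS was not the lowest. Stat2 measured 9.40, 9.51 and 10.17 labelled saline against 11.02, 10.12 and 9.37 labelled LPS, Irf9 9.35, 8.93 and 9.67 against 10.19, 9.77 and 9.04, and Usp18 9.63, 9.46 and 10.53 against 11.82, 10.69 and 9.47. For Ifit3 the values were 10.71, 10.04 and 11.20 against 12.11, 11.57 and 10.43, for Oas1a 6.89, 7.12 and 7.67 against 8.97, 7.93 and 6.93, and for Oas2 8.02, 8.22 and 9.25 against 10.71, 9.26 and 7.96. Within the LPS label, array 1 was the highest for all 37 members, and 19 members were at least 1 log2 unit above both others there, against 1.18% of all genes. Oasl1 measured 7.65, 7.38 and 8.36 against 10.71, 8.75 and 7.47, Cmpk2 8.32, 8.12 and 9.02 against 10.58, 9.24 and 8.19, and Mx2 5.61, 5.78 and 6.28 against 7.60, 6.37 and 5.80. Ddx58 measured 10.12, 9.96 and 10.54 against 11.27, 10.68 and 10.06, and Ifih1 9.25, 9.19 and 9.82 against 10.85, 10.03 and 9.18. Bst2 measured 8.85, 8.79 and 9.55 against 10.13, 9.72 and 8.76.

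Lgals3bp, Eif2ak2, Samhd1 and Ifi27l2a complete the set. Lgals3bp measured 11.08, 10.80 and 12.27 labelled saline against 12.38, 12.16 and 11.08 labelled LPS, and Eif2ak2 8.33, 8.27 and 8.93 against 10.05, 9.13 and 8.33. Samhd1 measured 11.66, 11.62 and 12.00 against 12.80, 12.12 and 11.57, and Ifi27l2a 8.20, 8.20 and 8.83 against 9.45, 8.49 and 8.55. For Ifi27l2a the third LPS array lay between its partners, and for the other 3 genes it was the lowest of its label.

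No member passed the test for smoke against air. With saline, limma called 0 of 37 in C57BL/6 (0% of all genes; 0 at an unadjusted p under 0.05) and 0 in AKR (0.034% of all genes; 2 at an unadjusted p under 0.05). In C57BL/6 the largest differences were Irf7 (0.94), Ifit1 (0.76) and Zbp1 (0.59), which were 0.05, 0.20 and 0.05 without the pair, and the smallest were Sp100 (-0.10), Epsti1 (-0.08) and Samhd1 (-0.01), which were -0.07, -0.26 and -0.13 without it. The median member moved from 0.33 to 0.05 when the pair was left out. Smoke and air arrays were apart for 5 members, smoke being higher (Stat2, Usp18, Bst2, Xaf1 and Ifi35), against 8.65% of all genes. Their differences were 0.35 to 0.48 with the pair and 0.15 to 0.21 without it.

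In AKR with saline, the largest smoke differences were Ifit3 (1.56 ± 0.46, limma adjusted p = 0.293), Irf7 (1.34) and Ifit1 (1.20). Without array 2 and the C57BL/6 pair they were 0.89, 0.30 and 0.30, and the median member went from 0.46 to 0.06. On every smoke array 6 members were higher, against 6.39% of all genes: Ifit1, Ifit3, Mx1, Ddx58, Dtx3l and Lgals3bp. Ifi27l2a went the other way, at 9.09, 8.28 and 8.24 with air and 7.71, 8.19 and 7.91 with smoke (-0.60). It was the 1 member lower on every smoke array, against 5.33% of all genes. Samhd1 (0.03) and Stat2 (0.11) differed least.

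With LPS, smoke against air gave 0 calls of 37 by limma in both strains (0% of all genes in C57BL/6 and 0.0068% in AKR). At an unadjusted p under 0.05 there were 0 in C57BL/6 and 1 in AKR. In C57BL/6 all 37 estimates were negative, from -0.07 for Sp100, -0.10 for Epsti1 and -0.11 for Ifi27l2a to -0.75 for Ifit1, -0.92 for Irf7 and -1.12 for Zbp1. Without the pair Sp100 was at 0.14, Epsti1 at 0.29 and Ifi27l2a at 0.03, and Ifit1 was at 0.11, Irf7 at 0.18 and Zbp1 at -0.18. Then 28 of the 37 were positive and the median was 0.10 in place of -0.46. In AKR the median was 0.13, and Irf7 (0.61), Tor3a (0.58, limma adjusted p = 0.265) and Ifit3 (0.57) were highest, with Parp14 (-0.18), Zbp1 (-0.12) and Samhd1 (-0.11) lowest. Every smoke array exceeded every air array with LPS for 4 members, Irf7, Irf9, Bst2 and Lgals3bp, against 23.9% of all genes.

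Whether smoke altered the response to LPS was tested as the difference of differences within each strain. Limma called 0 of 37 members in either strain, and 0% of all genes. In AKR 0 members had an unadjusted p under 0.05, the median was -0.38, and the ends were Ifit3 (-0.99), Ifit1 (-0.89) and Zbp1 (-0.81) against Ifi27l2a (0.85), Bst2 (0.30) and Irf9 (0.24). Without the 3 arrays that stand apart the median was 0.04. In C57BL/6 Stat2 (-0.999) and Irf9 (-0.64) had an unadjusted p under 0.05 (limma adjusted p = 0.679 for both; estimates of -0.36 and -0.15 without the pair), and the median of -0.77 became 0.03 without the pair.

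**Figure D5:**
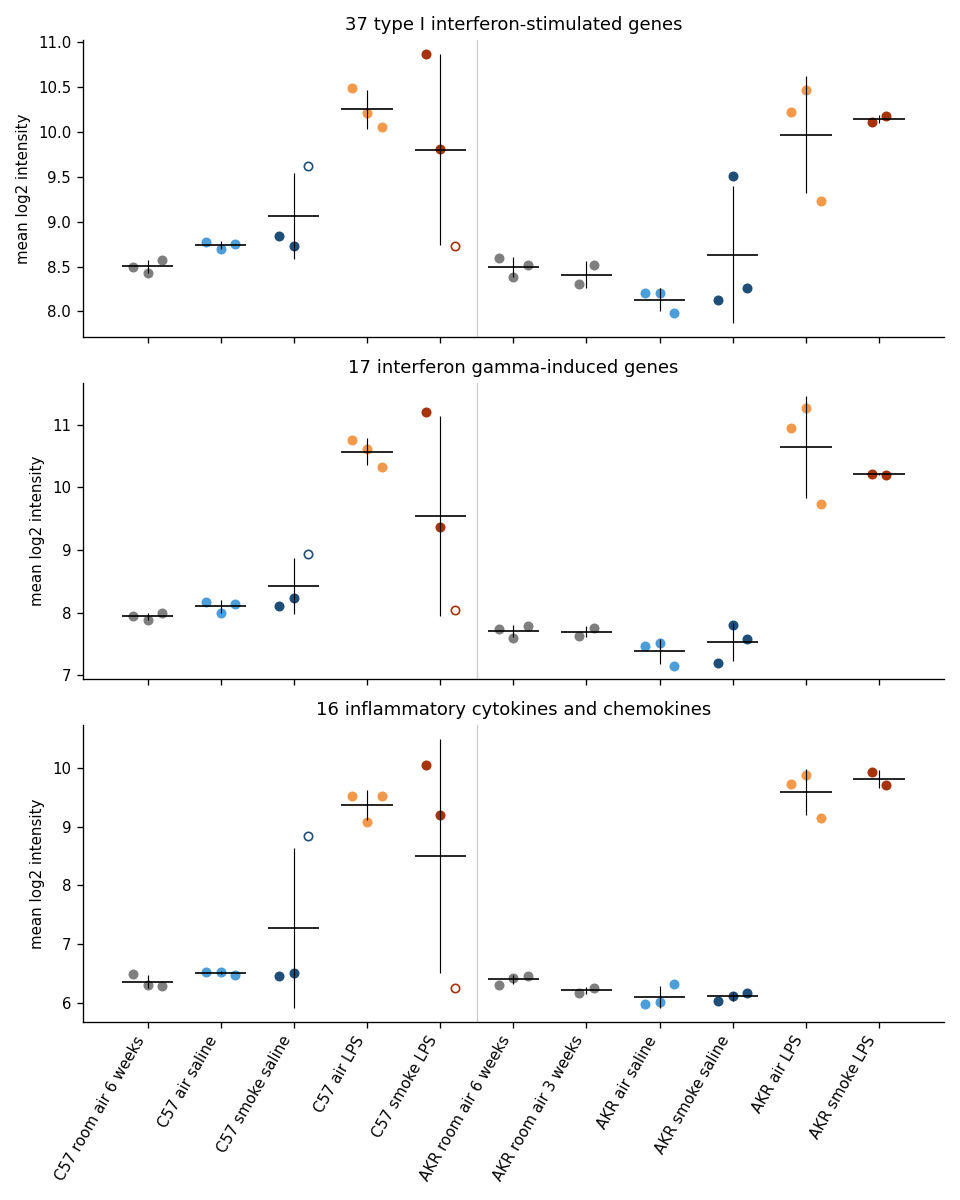
Mean log2 intensity on each array of the 37 measured members, 17 interferon gamma-induced genes and 16 inflammatory cytokine and chemokine genes (one panel each), by group. The panel of the 16 also averages the untested Il10. AKR smoke and saline array 2 lies at 9.512 for the members, against 8.129 and 8.258 on its partners, and at 6.12 for the cytokines, against 6.034 and 6.177.

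The uninstilled mice give the level of the members at rest. The mean of the 37 was 8.498, 8.434 and 8.575 in C57BL/6, and 8.597, 8.38 and 8.515 in AKR after 6 weeks. In AKR after 3 weeks it was 8.305 and 8.518, on arrays of the smaller set, which are not compared with the others. Between the strains at 6 weeks, within the larger set of arrays, limma called 0 of 37 members different, against 2.69% of all genes, and 1 member had an unadjusted p under 0.05. That was Ifi27l2a, at 8.63, 8.24 and 8.40 in AKR against 7.31, 7.89 and 7.73 in C57BL/6 (0.78 ± 0.31, limma adjusted p = 0.267). Oas2 (0.45) and Tor3a (0.41) came next, and Rsad2 (-0.61), Dtx3l (-0.37) and Epsti1 (-0.33) were lowest in AKR relative to C57BL/6. AKR arrays were all higher for 5 members (11.6% of all genes) and all lower for 6 (9.86% of all genes).

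Rsad2 at rest measured 7.56, 7.02 and 7.39 in C57BL/6, and 6.83, 6.74 and 6.56 in AKR at 6 weeks, without overlap. Irf7 measured 7.80, 7.52 and 7.89 against 8.03, 7.66 and 7.77, and Ifit1 8.34, 8.20 and 8.60 against 8.47, 8.40 and 8.49. Those groups overlapped. Oas2 measured 7.69, 7.94 and 8.14 against 8.65, 8.08 and 8.40, Cmpk2 8.22, 7.91 and 7.96 against 7.81, 7.67 and 7.82, and Zbp1 7.84, 7.73 and 7.79 against 7.71, 7.56 and 7.58. Of these 3, Oas2 overlapped and the others were lower in AKR on every array. Stat2 measured 9.19, 9.29 and 9.49 against 9.34, 9.28 and 9.28, Irf9 8.70, 8.58 and 8.62 against 8.73, 8.64 and 8.65, and Ifit3 9.88, 9.75 and 9.89 against 9.997, 9.28 and 9.85. These overlapped.

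Mx1 at rest was at 5.30, 5.66 and 5.77 in C57BL/6 and 5.89, 5.68 and 5.72 in AKR, and Mx2 at 5.32, 5.26 and 5.70 and 5.50, 5.29 and 5.34. Usp18 measured 9.36, 9.28 and 9.50 and then 9.67, 9.33 and 9.42, and Bst2 8.69, 8.43 and 8.50 and then 8.29, 8.37 and 8.44. All 4 overlapped. Oas1a measured 7.03, 6.81 and 7.10 in C57BL/6 and 7.16, 6.77 and 7.27 in AKR, Oasl1 7.58, 7.24 and 7.40 and 7.36, 7.32 and 7.36, and Eif2ak2 7.90, 8.04 and 8.26 and 7.996, 7.76 and 8.04. Ddx58 measured 10.01, 9.61 and 9.70 and then 9.85, 9.65 and 9.90, and Ifih1 9.01, 8.97 and 9.07 and then 9.22, 8.92 and 9.20. The 5 overlapped as well. Samhd1 did not, at 11.50, 11.59 and 11.52 in C57BL/6 and 11.80, 11.70 and 11.92 in AKR, nor did Lgals3bp, at 10.83, 10.69 and 10.84 and 10.65, 10.58 and 10.59.

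Saline instillation was set against no instillation within each set of arrays, with different exposure times: 6 weeks of room air for the uninstilled C57BL/6 mice and 3 weeks for the AKR mice. Limma called 0 of 37 members in C57BL/6 (0.0136% of all genes; 0 at an unadjusted p under 0.05) and 0 in AKR (0.687%; 1 at an unadjusted p under 0.05, Tor3a, -0.60 with a limma adjusted p of 0.202). In C57BL/6 33 of 37 estimates were positive (median 0.23), Rsad2 (0.78 ± 0.72), Irf7 (0.61 ± 0.78) and Trim30a (0.54) being largest and Ifi35 (-0.08), Isg20 (-0.07) and Stat2 (-0.03) lowest. In AKR 34 were negative (median -0.26), with Irf7 at -0.63 and Ifit3 at -0.955 and with Stat2 (0.11), Mx2 (0.10) and Oas2 (0.04) at the top. AKR air and saline array 3 was the lowest of its 3 arrays for 26 of the 37 members and the highest for 6. It was at least 1 log2 unit below both others for 0 members. Its Saa3 was at 8.95, against 6.22 and 6.38. That array also enters the AKR differences for LPS after air. Saline arrays were all higher for 16 members in C57BL/6, against 7.94% of all genes, and all lower for 18 in AKR, against 27.2%. Both held for 10 members, among them Irf7, Ifit3, Zbp1 and Lgals3bp, against 4.54% of all genes. The difference between the strains was called by limma for 0 of 37 members, against 1.48% of all genes, and 3 had an unadjusted p under 0.05. Without the doubted pair and AKR smoke saline array 2, which lie outside these groups, 1 member was called, Lgals3bp, with an estimate of -0.75 and a limma adjusted p of 0.0463. With only the compared groups in the fit limma called 9 for this difference, and 1 for saline in C57BL/6, Trim30a (limma adjusted p = 0.0439).

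The AKR mice at rest for 3 weeks measured 7.91 and 8.23 for Irf7, 9.32 and 10.01 for Ifit3, 6.38 and 7.02 for Rsad2 and 7.41 and 7.61 for Zbp1. Of these, Irf7, Ifit3 and Zbp1 were lower on every AKR saline array. Stat2 was at 8.92 and 9.12, Irf9 at 8.63 and 8.76, Ifit1 at 8.05 and 8.45, Usp18 at 9.62 and 9.71, Mx1 at 6.13 and 5.85 and Mx2 at 5.33 and 5.49. Oas1a was at 6.57 and 6.82, Oas2 at 7.77 and 8.10, Oasl1 at 7.09 and 7.15, Cmpk2 at 7.94 and 7.94, Ddx58 at 9.66 and 9.88, and Ifih1 at 8.87 and 9.18. Cmpk2 and Ddx58 lay above their 3 saline arrays, and Oas1a, Oas2 and Oasl1 within the range of theirs. Bst2 was at 8.22 and 8.24, Eif2ak2 at 7.53 and 7.81, Samhd1 at 11.44 and 11.65, Lgals3bp at 10.97 and 11.01 and Ifi27l2a at 8.64 and 9.23. Samhd1 and Lgals3bp were above every AKR saline array.

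Medians of lymphocyte markers had the same signs as the members' medians for saline in both strains. Of 8 natural killer cell genes the median was 0.67 in C57BL/6 and -1.09 in AKR, where 2 fell by the test. The mean of these 8 lay at 8.002 to 8.194 with saline and 7.247 to 7.518 without in C57BL/6, and at 5.438 to 5.948 with saline and 6.58 to 6.977 without in AKR. Of 6 B cell genes the medians were 0.84 and -0.88, and of 6 T cell genes 0.39 and -0.67. These signs were not particular to lymphocytes. The mean of neutrophil genes was 6.868 without and 7.481 with saline in C57BL/6, and 6.533 and 6.346 in AKR. Monocyte and macrophage genes (8.173 and 8.455, then 7.786 and 7.392) and endothelial genes (11.397 and 11.602, then 11.454 and 10.978) went likewise. Epithelial means were lower with saline in both strains, and heart muscle means higher in both. The part of these cells in the members' levels was not tested.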

How the data were processed

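Lung RNA was measured on 31 Affymetrix arrays. The authors deposited normalized log2 intensities of 35556 probe sets, made with RMA per the submitters' processing notes (version not stated). Array numbers, not read depth, limit the precision. Gene names came from the platform annotation, which lists 23410 probe sets, 21789 of them with 1 symbol and 1621 with several. Of the Entrez identifiers 99.6% matched RefSeq (GRCm38.p6). The probe set with the highest mean stood for a gene with several.

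Tested were the 14705 of 19938 genes whose value passed the 40th percentile, taken within each array over all probe sets, on 3 or more arrays. One limma model (version 3.58.1, R 4.3.3) fitted the means of all 11 groups (20 residual degrees of freedom), and each comparison was a contrast of that model. Variances were moderated by empirical Bayes, and p-values adjusted by Benjamini-Hochberg for all genes tested. A gene with an adjusted p under 0.05 was called. The script was tested on simulated data. Strains were compared across both sets of arrays only as differences of differences.

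Values of every array are given for 21 of 22 members named by a rule that preceded the fits (Isg15 has none). Added were, for each comparison, the 3 largest and 3 smallest differences and each member called outside the LPS comparisons. The members and gene lists were chosen with earlier results of these data known. Pathway and marker lists are given by counts and medians.

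Alternatives were no filter, the mean of a gene's probe sets, quantile normalization, median centring, only the compared groups, the replicate number as a block, and leaving out each array. Leaving out the doubted C57BL/6 pair, or the pair and AKR smoke and saline array 2, and the strain by saline comparison were chosen after seeing the data.

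Same-numbered arrays deviated together, with every correlation over 0.1, in saline against room air in C57BL/6 (0.409, 0.225 and 0.303). They also did so in smoke against air with LPS in AKR, where 2 numbers were shared (0.54 and 0.44). The replicate block called 0 members in either comparison, as did the fit without it. In the AKR comparison the estimates of 7 members changed sign with the block.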

Additional observations from a re-analysis of the deposited data

Results flagged for a closer look

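Estimates for saline against room air had opposite signs in the strains for most members, without a call in either strain with all arrays and groups in the fit. On every C57BL/6 saline array 10 members were above every uninstilled C57BL/6 array, and on every AKR saline array below every uninstilled AKR array: Irf7, Irf9, Ifit3, Mx1, Oasl2, Parp9, Zbp1, Sp100, Samhd1 and Lgals3bp. No member did the reverse. Of all genes tested 667 of 14705 showed this pattern, 4.54%.

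Irf7 differed by 0.61 ± 0.78 log2 units in C57BL/6 and by -0.63 in AKR. The difference of the strains' differences was called for 0 of 37 members by limma, against 1.48% of all genes. It was called for 9 with only the compared groups in the fit and for 1, Lgals3bp, without the 3 arrays that stand apart. At an unadjusted p under 0.05 there were 3, Sp100 (-0.83, limma adjusted p = 0.218), Samhd1 (-0.70) and Tor3a (-0.71). The median over the members was -0.565 and over all genes -0.02, and 34 of 37 were negative. Irf7 (-1.24) and Trim30a (-0.96) were among the lowest and Stat2 (0.15), Mx2 (0.12) and Isg20 (0.03) the highest. The uninstilled groups differ in exposure time between the strains, 6 weeks against 3 weeks, so strain and time cannot be told apart in this comparison. Of 8 natural killer cell genes 5 were lower in the same test.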

How the results depend on the processing

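With no filter, with probe sets averaged, with quantile normalization or with median centring, each count of members called stayed within 1.5 times that reported and no called member changed sign. Leaving out both doubted C57BL/6 arrays changed the count for LPS after smoke in C57BL/6 from 0 to 34, and leaving out AKR smoke and saline array 2 as well also gave 34. Without the 3 arrays the strain by saline difference called 1 member, Lgals3bp (-0.75, limma adjusted p = 0.0463), and with only the compared groups 9. Saline against room air in C57BL/6 called 1 with only the compared groups, Trim30a (0.54, limma adjusted p = 0.0439). In these saline comparisons the arrays left out lie outside the compared groups. The estimates therefore did not change, whereas the shared spread and the adjustment of p did. The cause of the saline differences was not tested.

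Leaving out single arrays gave 18 to 30 members for LPS after air in C57BL/6, 28 to 37 in AKR, 0 to 28 after smoke in C57BL/6, 13 to 37 after smoke in AKR and 0 to 1 for the strain by LPS difference; the other comparisons stayed at 0. The replicate block called 33 and 36 members for LPS after air in C57BL/6 and AKR, 0 and 25 after smoke, and 0 elsewhere. Same-numbered arrays deviated together in saline against room air in C57BL/6 and in smoke against air with LPS in AKR. In the other comparisons the replicate numbers did not pair the arrays throughout (correlations from -0.773 to 0.549).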
